A study of Mus musculus with 3 samples.

Results

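The genes described here are 31 genes of cholesterol synthesis and handling, chosen by name from the 19274 genes that stood in either of the 2 deposited RNA tables, and all 31 stood in both. They were 19 enzymes of the synthesis pathway and 12 genes of its control, of lysosomal release and carriage, of efflux, and of esters and oxysterols. Immune cells had been enriched on a Percoll gradient from the perfused and digested brains of 8 female C57Bl/6 mice aged 2 to 3 months, 1 hemisphere per mouse per the labels. Each brain was tagged with its own hashtag, an antibody that carries a DNA barcode, and the 8 suspensions were pooled into a single droplet library read from the 3′ ends of RNAs.

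Metastasis-bearing brains came from 2 homozygous (Cx3cr1-/-) and 2 heterozygous (Cx3cr1+/-) mice that had received E0771 cells, a mouse mammary tumour line, into the carotid artery about 2 weeks earlier. Naive brains came from 2 homozygous and 2 heterozygous mice without metastases. All 8 mice carried at least 1 disrupted allele of Cx3cr1, which encodes the fractalkine receptor, so no wild-type brain was among them. The labels give neither the design of the Cx3cr1 allele nor litters, and a genotype was 2 brains in each state, so p-values measure the spread between these brains. In microglia-like cells, Cx3cr1 itself was at 114 and 31.6 CPM (counts per 1000000) in homozygous and at 1363 and 1464 CPM in heterozygous brains with metastases. In naive brains it was at 75.6 and 71.4 CPM in the homozygous and at 1953 and 1852 CPM in the heterozygous mice.

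Cells make cholesterol from acetyl units through the mevalonate pathway, which runs over squalene and lanosterol. When sterol in the endoplasmic reticulum is low, SCAP carries the transcription factor SREBP2, the product of Srebf2, to be cut and activated, and SREBP2 raises the genes of the pathway; the INSIG proteins hold SCAP back when sterol is high. Surplus sterol activates the liver X receptors, which raise the exporters ABCA1 and ABCG1 and the ubiquitin ligase MYLIP, which degrades the receptor for low density lipoprotein. In the brain, microglia and infiltrating macrophages also take up lipid from debris, which lysosomal enzymes and carriers release as free sterol.

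The tables held 13455 cells. A cell barcode found in both of them was used in neither, which removed 1138 barcodes and kept 8443 cells from brains with metastases and 2736 from naive brains. The authors' clusters were named from marker genes. The largest cluster of metastasis-bearing brains had 2732 of these cells, expressed Krt8 (508 to 626 CPM) and Wfdc2 (616 to 779 CPM), epithelial genes, and had almost no Ptprc, the pan-leukocyte gene CD45 (0.888 to 6.92 CPM), against the labelled cell type of brain immune cells. It is called Krt8-high here. A Krt8-high cluster was also in the naive table, against the label of brains without metastases, and 266 of its 402 barcodes were among those in both tables. The other classes are called monocyte/macrophage-like, T-like, microglia-like, NK-like and vascular-like (1786, 1201, 654, 747 and 454 cells). Median raw UMIs (barcoded RNA molecules) per cell were 103002 in Krt8-high cells and 4136 to 12032.5 in the other 5 classes. The deposited values were corrected for depth, and CPM are corrected UMIs summed over the cells of a class in a brain and scaled to 1000000.

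Promoter windows of 300 bases, 250 before and 50 after the start of a transcript, were given by RefSeq (GRCm38.p6) for 24 of the 31 genes. Windows are shown of 3 enzymes that were high in Krt8-high cells and of Abca1, an exporter that was near 0 there. They are examples of windows with and without the exact words searched here, short words known from sterol-responsive promoters. The words do not sort the genes by class: Mylip, near 0 in Krt8-high cells, had 3 NF-Y boxes, Ebp, lowest there, had 2, and Acat2 had none. Capitals mark CCAAT, the box of the factor NF-Y that assists SREBP2, and TCACNCCAC, the core of the sterol regulatory element, each on either strand (ATTGG is CCAAT on the other strand). Hmgcs1 is shown from chr13:119690101-119690400 on the plus strand, Idi1 from chr13:8885356-8885655 on the plus strand, Cyp51 from chr5:4104648-4104947 on the minus strand and Abca1 from chr4:53159846-53160145 on the minus strand.
Hmgcs1: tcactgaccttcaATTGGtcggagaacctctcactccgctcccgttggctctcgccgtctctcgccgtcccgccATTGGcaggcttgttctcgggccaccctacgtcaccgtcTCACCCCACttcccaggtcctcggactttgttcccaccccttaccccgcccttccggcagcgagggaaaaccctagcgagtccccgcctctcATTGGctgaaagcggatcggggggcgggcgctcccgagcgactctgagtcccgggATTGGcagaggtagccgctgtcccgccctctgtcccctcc
Idi1: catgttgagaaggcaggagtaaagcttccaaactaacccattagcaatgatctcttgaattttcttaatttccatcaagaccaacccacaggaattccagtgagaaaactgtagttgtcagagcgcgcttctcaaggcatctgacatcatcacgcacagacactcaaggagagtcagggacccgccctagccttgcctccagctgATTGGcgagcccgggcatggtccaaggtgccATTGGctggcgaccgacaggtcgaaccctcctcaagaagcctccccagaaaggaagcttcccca
Cyp51: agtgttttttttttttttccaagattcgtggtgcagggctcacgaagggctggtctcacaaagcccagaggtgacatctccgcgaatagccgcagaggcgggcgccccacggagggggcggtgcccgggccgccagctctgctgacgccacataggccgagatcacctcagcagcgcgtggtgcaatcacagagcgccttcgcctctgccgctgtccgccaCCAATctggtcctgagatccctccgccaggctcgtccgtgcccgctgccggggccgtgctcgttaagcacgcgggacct
Abca1: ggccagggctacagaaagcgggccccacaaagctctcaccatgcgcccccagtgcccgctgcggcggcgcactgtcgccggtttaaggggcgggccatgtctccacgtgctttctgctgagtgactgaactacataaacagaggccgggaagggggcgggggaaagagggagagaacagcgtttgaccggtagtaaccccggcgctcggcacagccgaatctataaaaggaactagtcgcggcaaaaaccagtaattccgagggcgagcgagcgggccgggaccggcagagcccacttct

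The Hmgcs1 window held TCACCCCAC, 137 bases before the start, and 4 NF-Y boxes. The Idi1 window held 2 NF-Y boxes, 45 and 14 bases before the start, the Cyp51 window held 1, and the Abca1 window held none of the words searched. An NF-Y box was in a window of 14 of the 15 synthesis enzymes with one (93.3%) and of 6 of the 9 other genes with one (66.7%), against 41.1% of all 27025 genes with a window. The exact word TCACNCCAC was in Hmgcs1 alone of the 24 genes, against 1.44% of all genes. The direct repeat that liver X receptors bind was searched in 1 exact spelling, which was in none of the 24, against 0.0148% of all genes. Only 4 of all 27025 genes matched it, and variant spellings were not searched. Its absence therefore cannot show that a window, that of Abca1 included, lacks such a repeat. No capitals overlap between words, a match of letters is not a measured site, and genes with several windows count once.

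The synthesis enzymes were highest in Krt8-high cells. In metastasis-bearing brains, 17 of the 19 enzymes were higher in Krt8-high cells than in each of the other 5 classes in every one of 4 brains. Of all 11178 genes with a mean above 10 CPM in at least 1 of the 6 classes, 26.6% did so. The log2 ratio of Krt8-high cells over the mean of the other 5 classes (10 CPM added to both) had a median of 1.89 over the enzymes and 0.04 over all these genes. Over the 12 other members it was -0.64, and 8 of the 12 were lower in Krt8-high cells in all 4 brains. The clusters were built from all genes, so these values describe the classes and carry no test.

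**Figure D1:**
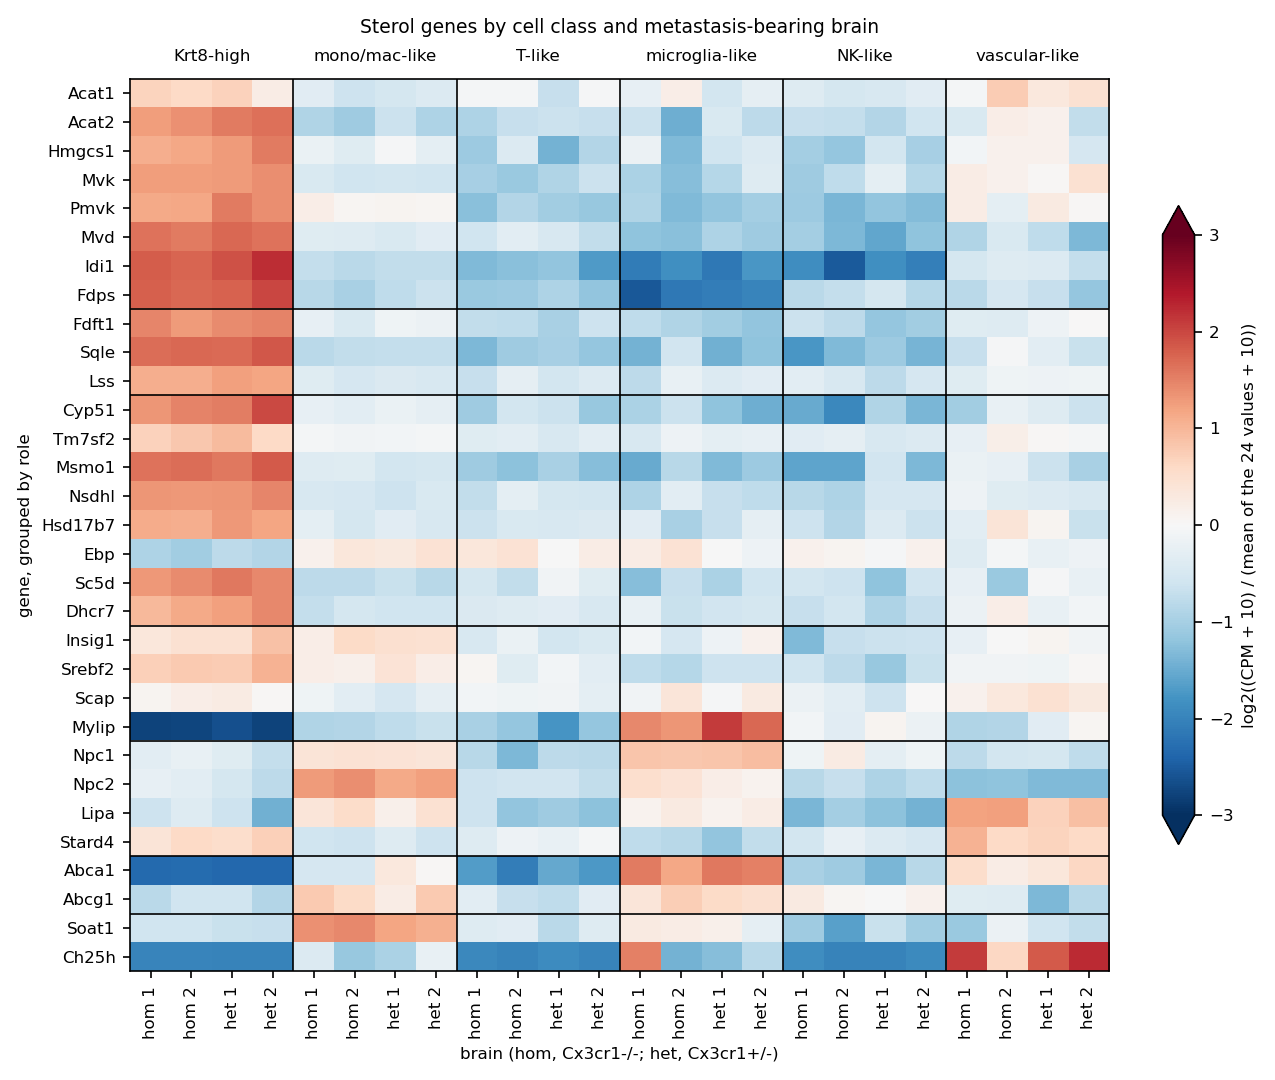
Level of the 31 genes (rows, in the order of their roles) in 6 cell classes of the 4 metastasis-bearing brains (columns; hom 1 and 2, het 1 and 2), as log2 of CPM + 10 over the gene's mean + 10. The synthesis enzymes are red under Krt8-high, with Ebp as the exception, and Mylip, Abca1 and Ch25h are deep blue there.

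Among the early steps, up to the isoprenoid diphosphates, Fdps and Idi1 had the highest levels. The ratio between the highest and the lowest class was widest for Idi1 (36.3) and Mvd (35.9), both over NK-like cells. Their NK-like means were low (7.11 and 2.27 CPM) and are among the levels not read as expression below, so these ratios are not exact. Fdps, farnesyl diphosphate synthase, was at 436 and 417 CPM in Krt8-high cells of the homozygous and at 430 and 512 CPM in those of the heterozygous brains. In the other 5 classes its means were 18.8 to 68.4 CPM, and no brain of these classes came near a brain of the Krt8-high class. Idi1, isopentenyl diphosphate isomerase, was at 237 and 225 CPM in Krt8-high cells of the homozygous and at 256 and 314 CPM in those of the heterozygous brains. Its means were 39.7 CPM in vascular-like, 32.0 CPM in monocyte/macrophage-like and 7.11 CPM in NK-like cells.

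The mevalonate kinases and decarboxylase followed. Pmvk, phosphomevalonate kinase, averaged 143 ± 22.02 CPM in Krt8-high cells (SD, n = 4 brains), with 55.3 CPM in monocyte/macrophage-like cells. Mvd, mevalonate diphosphate decarboxylase, was at 80.8 and 76.9 CPM in Krt8-high cells of the homozygous and at 87.2 and 82.0 CPM in those of the heterozygous brains, and averaged 12.6 CPM in monocyte/macrophage-like cells, the next class. Hmgcs1, which makes HMG-CoA, averaged 111 ± 17.8 CPM in Krt8-high cells and 37.6 CPM in vascular-like cells. Acat1, a mitochondrial thiolase that works mainly in ketone and amino acid metabolism, did not follow them: it averaged 95.7 ± 14.99 CPM in Krt8-high and 84.5 ± 21.8 CPM in vascular-like cells, and the brains overlapped.

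Of the squalene steps, Sqle, squalene epoxidase, was at 107 and 112 CPM in Krt8-high cells of the homozygous and at 110 and 123 CPM in those of the heterozygous brains. Its highest mean among the other 5 classes was 17.7 CPM, in vascular-like cells. Fdft1, squalene synthase, averaged 64.2 ± 4.79 CPM in Krt8-high cells and 14.0 CPM in vascular-like cells. Lss, which closes the lanosterol rings, averaged 28.2 ± 1.98 CPM in Krt8-high cells and at most 5.09 CPM in the other 5 classes.

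Of the steps from lanosterol to cholesterol, Msmo1, the methyl sterol oxidase, was at 203 and 212 CPM in Krt8-high cells of the homozygous and at 197 and 238 CPM in those of the heterozygous brains, with 40.6 CPM in monocyte/macrophage-like cells. Cyp51, the lanosterol demethylase, was at 116 and 129 CPM in Krt8-high cells of the homozygous and at 134 and 188 CPM in those of the heterozygous brains, with 31.8 CPM in monocyte/macrophage-like cells. The Krt8-high brains lay above all brains of the other classes for both genes. Tm7sf2, a sterol reductase, was low throughout. It was at 12.6 and 14.3 CPM in Krt8-high cells of the homozygous and at 16.9 and 10.9 CPM in those of the heterozygous brains. Its means were at most 3.73 CPM in the other 5 classes. Ebp, the sterol isomerase, ran the other way. It averaged 31.3 ± 3.30 CPM in Krt8-high cells, and 85.2 ± 8.22 CPM in monocyte/macrophage-like, 82.6 CPM in T-like and 57.2 CPM in vascular-like cells. Every Krt8-high brain lay below every brain of the other 5 classes, while the classes above it overlapped.

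Free RNA from broken cells bears on low levels of genes that another class has in plenty. Krt8 in T-like and NK-like cells stood at 6.78% and 11.5% of its level in Krt8-high cells, and Wfdc2 at 7.25% and 11.4%. At or below the higher of these shares were 12 of the 19 enzymes in NK-like cells and 3 in T-like cells (Idi1, Sqle and Tm7sf2), and these levels are not read as expression. In monocyte/macrophage-like, microglia-like and vascular-like cells Krt8 stood at 1.93%, 2.04% and 7.73%, and 0 of the 19 enzymes was at or below the share of the markers; the enzymes' median share of the Krt8-high level was 15.4%, 10.2% and 21.8%.

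**Figure D2:**
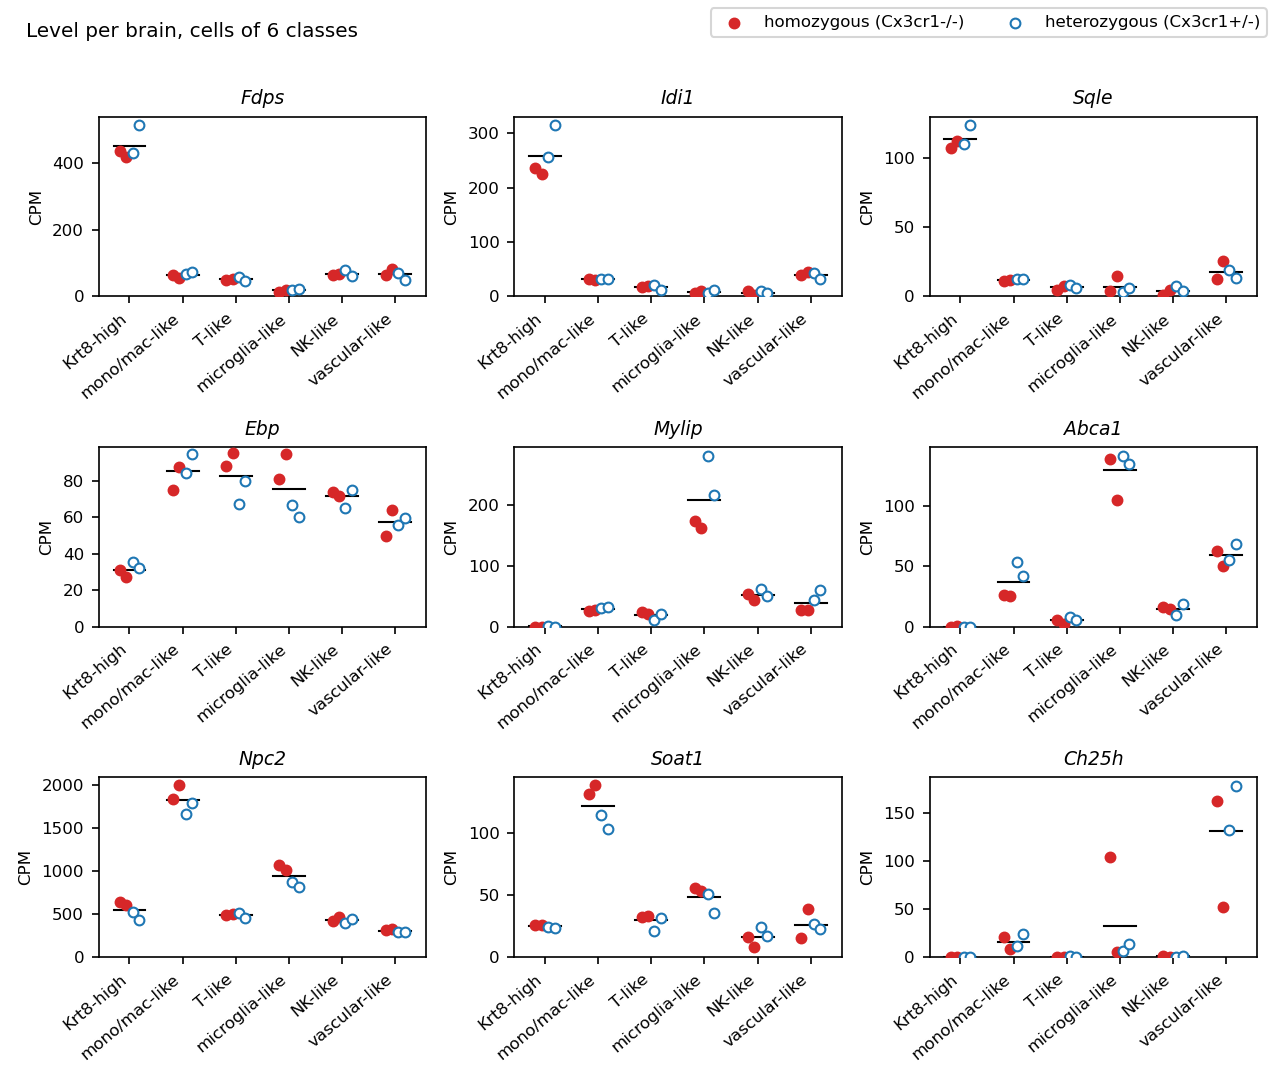
CPM of 9 genes (panels) in 6 cell classes, with 1 point per metastasis-bearing brain (filled, homozygous; open, heterozygous) and a line at the mean of the 4 brains. Fdps, Idi1 and Sqle stand out in Krt8-high cells, Ebp is lowest there, Mylip and Abca1 peak in microglia-like cells, Npc2 and Soat1 in monocyte/macrophage-like cells, and Ch25h in vascular-like cells.

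The genes that sense sterol were split. Srebf2 averaged 77.2 ± 9.38 CPM in Krt8-high cells, above all brains of the other classes, with 47.7 CPM in monocyte/macrophage-like and 19.8 CPM in microglia-like cells. Insig1, which retains SCAP and is itself a target of SREBP2, averaged 40.5 ± 8.64 CPM in Krt8-high and 36.8 ± 4.86 CPM in monocyte/macrophage-like cells, which overlapped. The means of Scap in the 6 classes were within 8.57 to 18.3 CPM. Mylip was at 175 and 163 CPM in microglia-like cells of the homozygous and at 282 and 217 CPM in those of the heterozygous brains. The next class, NK-like cells, averaged 53.0 CPM, and the Krt8-high class held 4 corrected UMIs of Mylip in 2732 cells.

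Efflux genes were highest in myeloid cells. Abca1, which loads cholesterol onto lipid-poor apolipoproteins, was at 139 and 104 CPM in microglia-like cells of the homozygous and at 141 and 134 CPM in those of the heterozygous brains. It averaged 59.1 CPM in vascular-like and 36.7 CPM in monocyte/macrophage-like cells, and Krt8-high cells held 4 corrected UMIs of it. Abcg1, which exports sterol to lipoprotein particles, averaged 72.6 ± 14.1 CPM in monocyte/macrophage-like and 68.9 ± 8.84 CPM in microglia-like cells, which overlapped, and 22.7 CPM in Krt8-high cells. Of the 12 members outside the synthesis enzymes, 3 were highest in microglia-like cells in every brain (Abca1, Mylip and Npc1), against 7.76% of all genes. In monocyte/macrophage-like cells 2 were (Npc2 and Soat1), against 6.72%, and in vascular-like cells 2 (Lipa and Ch25h), against 16.4%. In Krt8-high cells 1 was, Srebf2, and in T-like and NK-like cells 0 were, against 2.83% and 2.16%.

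Lysosomal genes peaked in myeloid and vascular cells. Npc2, the soluble carrier that hands cholesterol on inside lysosomes, was at 1839 and 2009 CPM in monocyte/macrophage-like cells of the homozygous and at 1667 and 1792 CPM in those of the heterozygous brains. Microglia-like cells averaged 942 CPM and the remaining classes 307 to 551 CPM. Npc1, the membrane protein that takes cholesterol over from NPC2, averaged 65.5 ± 2.62 CPM in microglia-like and 44.9 ± 1.08 CPM in monocyte/macrophage-like cells. Lipa, the lysosomal acid lipase, was at 135 and 138 CPM in vascular-like cells of the homozygous and at 91.9 and 108 CPM in those of the heterozygous brains, with 72.7 CPM in monocyte/macrophage-like cells. Stard4, a cytosolic sterol carrier, was at 44.5 and 29.9 CPM in vascular-like cells of the homozygous and at 31.8 and 30.2 CPM in those of the heterozygous brains. It averaged 29.0 ± 3.64 CPM in Krt8-high cells, which overlapped with these, and 4.47 CPM in microglia-like cells.

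Soat1, which esterifies cholesterol for storage, was at 132 and 139 CPM in monocyte/macrophage-like cells of the homozygous and at 115 and 103 CPM in those of the heterozygous brains, above the 48.8 CPM of microglia-like cells. Ch25h, which makes 25-hydroxycholesterol, an oxysterol that restrains SREBP2 processing, was at 162 and 51.3 CPM in vascular-like cells of the homozygous and at 132 and 178 CPM in those of the heterozygous brains. In microglia-like cells it was at 104 CPM in homozygous brain 1 and at 4.86, 6.38 and 12.9 CPM in the other brains, so 1 brain carried its mean there. Krt8-high cells held 3 corrected UMIs of it and T-like cells 3.

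The choroid plexus-like, neutrophil-like and B-like clusters had under 20 cells in at least 1 brain and are given pooled. In the 37 choroid plexus-like cells, pooled levels were 97.9 CPM for Hmgcs1, 77.2 CPM for Msmo1, 69.7 CPM for Sqle, 16.9 CPM for Lss and 84.7 CPM for Abca1. In the 94 neutrophil-like cells Fdps was at 83.3 CPM and Npc2 at 373 CPM, and in the 91 B-like cells Fdps was at 78.5 CPM and Mylip at 54.3 CPM. In each of these 2 clusters 15 of the 19 enzymes, Fdps not among them, were at or below the share that Krt8 and Wfdc2 had of their Krt8-high levels. In the unnamed cluster of 640 cells with few UMIs, 9 of the 19 were. Its pooled levels were 107 CPM for Msmo1, 90.7 CPM for Fdps, 65.8 CPM for Pmvk and 65.6 CPM for Idi1, none of them among the 9. Each of these levels lay below that of Krt8-high cells and above the means of the other 5 classes.

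A small cluster of 65 cells in metastasis-bearing brains (41 and 13 from the homozygous, 5 and 6 from the heterozygous brains) shared 58 of its barcodes with the naive table and is described apart, with all of its cells. It expressed Krt8 at 515 and Wfdc2 at 815 CPM and also the microglial genes C1qa at 979 and P2ry12 at 281 CPM, which were at 2.62 and 0.571 CPM in the Krt8-high cluster. Of the 19 enzymes, 17 had a pooled level above the mean of the Krt8-high cluster: Fdps was at 510, Idi1 at 265 and Msmo1 at 223 CPM, while Mylip was at 35.6 CPM (29 corrected UMIs) and Abca1 at 11.0 CPM (9 corrected UMIs). Within homozygous brain 1, 14 of the 19 enzymes were higher in this cluster than in the Krt8-high cluster, with a median log2 ratio of 0.12, and 48.3% of 8091 genes above 10 CPM were.

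Cells of the Krt8-high class differed among themselves, and the enzymes rose and fell together from cell to cell. Over 2732 cells, Spearman correlations between the corrected UMIs of 2 enzymes had a median of 0.44 over 171 pairs, and within the brains the medians were 0.44 and 0.39 in the homozygous and 0.54 and 0.48 in the heterozygous brains. Over all pairs of the 7977 genes above 10 CPM in these cells the median was 0.010. These genes were not matched to the enzymes in level. These cells share a library and a cell class, and the correlations are descriptions with no test. Idi1 and Fdps had the highest value, 0.80 (0.77 to 0.83 by brain), followed by Idi1 and Cyp51 at 0.75 and by Pmvk and Fdps at 0.73.

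**Figure D3:**
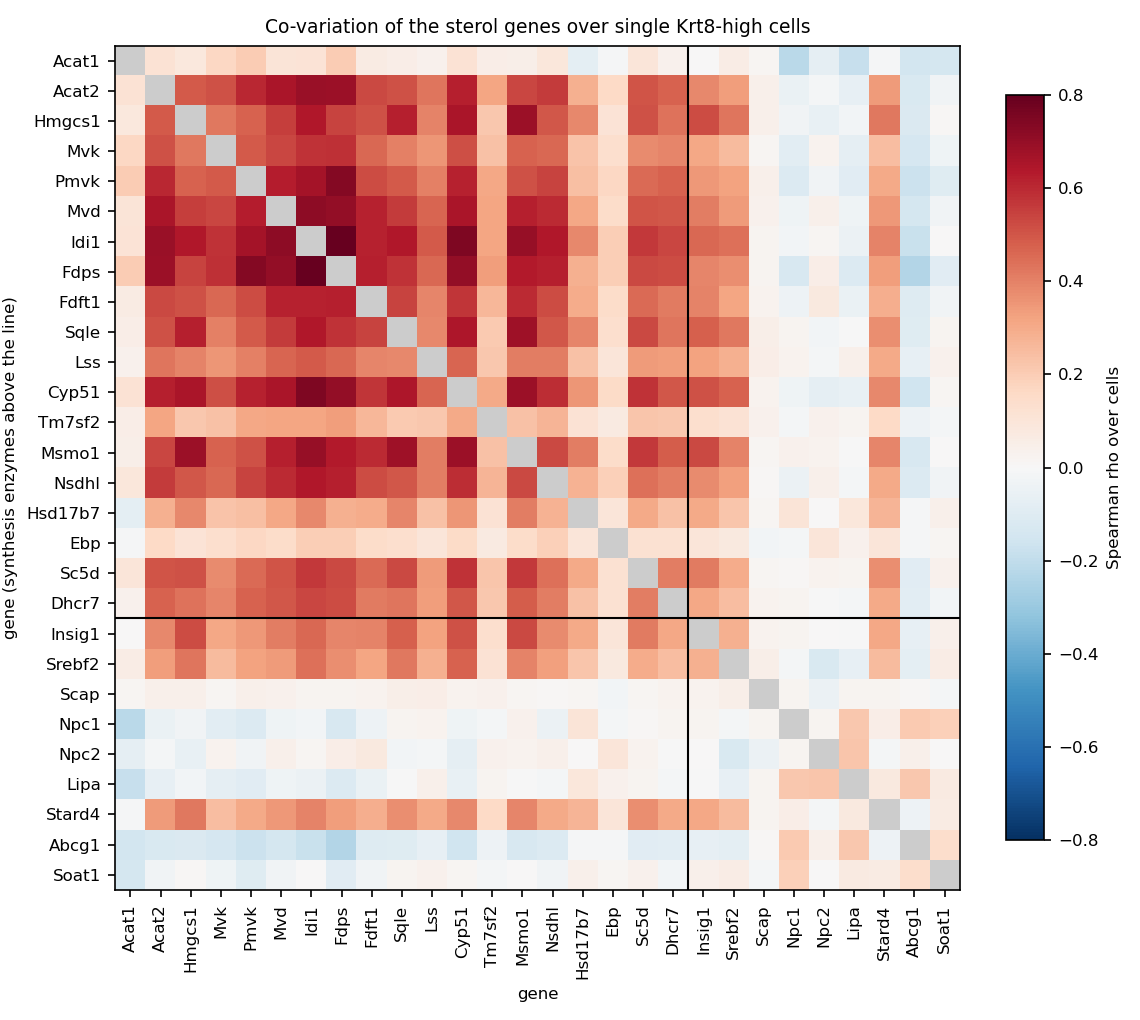
Spearman correlation over 2732 Krt8-high cells between the corrected UMIs of each pair among the 28 members with a mean above 10 CPM in these cells; black lines part the synthesis enzymes from the other genes, and the diagonal is grey. A red block joins most enzymes and reaches Insig1, Srebf2 and Stard4, while Acat1, Ebp, Scap and the lysosomal and efflux genes lie outside it.

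Each gene was also set against the summed UMIs of the 19 enzymes, its own left out. Idi1 had 0.87, Fdps 0.84, Cyp51 0.81 and Mvd 0.77, and 15 of the 19 enzymes passed 0.4 in every brain. Insig1 (0.52) and Srebf2 (0.47) did so too, and Stard4 reached 0.43 over all cells. Of 7977 genes, 26 passed 0.4 in every brain and 17 of them were members. The 9 others included the fatty acid elongase Elovl6 (0.53), 2 of the other sterol genes, Erg28 (0.54), whose yeast counterpart is a scaffold of sterol demethylation, Dbi (0.53), which binds acyl-CoA, and Tuba1a (0.55), a tubulin; Erg28, Dbi and Tuba1a were named after their values were seen. The members farthest from the enzymes were Abcg1 at -0.20 (-0.25 to -0.16 by brain), Npc1 at -0.07, Lipa at -0.07 and Soat1 at -0.04, and the last 3 are close to no relation. Ebp, the enzyme with the inverse class pattern, had 0.19, and Acat1 had 0.14.

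Depth and cycling were set against this sum, and their part in the correlations was not tested. The sum's correlation with raw UMIs was 0.058 over all cells and 0.025 to 0.18 by brain, and with the summed cycling markers it was 0.11 and 0.048 to 0.18. In 4 sets of 683 cells ordered by raw UMIs, with medians from 71910 to 152951, the 19 enzymes summed to 1772, 1967, 2214 and 2129 CPM. In the cells between the 25th and the 75th percentile of raw UMIs the median over pairs of enzymes was 0.44 again. The same median was 0.43 in 136 naive Krt8-high cells, 0.45 in the 65 cells of the small cluster, 0.10 in monocyte/macrophage-like cells and 0.025 in microglia-like cells, in which most enzymes have few UMIs.

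Other genes of the same pathways were taken from lists of names. Of 26 other sterol genes, 24 passed 10 CPM in a class; 5 of these were highest in Krt8-high cells in every brain and 5 in monocyte/macrophage-like cells, and their median log2 ratio of Krt8-high cells over the other classes was 0.04. Of 12 genes of fatty acid synthesis, which the related factor SREBP1 controls, 11 passed; 7 were highest in Krt8-high cells in every brain (Elovl6, Elovl1, Me1, Acaca, Fasn, Scd2 and Scd1), and their median ratio was 1.15.

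Genotype was compared within each class by limma, on log2 of CPM plus 10 with Benjamini-Hochberg adjustment over all fitted genes (threshold 0.05). No member passed in any of the 6 classes of metastasis-bearing brains, in naive microglia-like cells or in the difference between the states. Of the 31 members, 28 could be fitted in Krt8-high, 23 in monocyte/macrophage-like, 20 in T-like, 19 in microglia-like, 15 in NK-like and 27 in vascular-like cells, and 16 in naive microglia-like cells. Few genes of any kind passed: 0.025% of 8011 genes in Krt8-high, 0.0143% in monocyte/macrophage-like, 0% in T-like, 0.0814% in microglia-like (0.0678% higher, 0.0136% lower), 0.0476% in NK-like and 0% in vascular-like cells, 0.572% in naive microglia-like cells (0.403% higher, 0.169% lower, or 31 and 13 genes, which median-ratio scaling made 16 and 15) and 0.0142% for the difference. At an unadjusted p under 0.05 there were 486, 535, 297, 635, 254 and 918 genes in these 6 classes, 655 in naive microglia-like cells and 596 for the difference; members among them were 4, 2, 0, 3, 0 and 4, 2 and 1. With 2 brains a genotype, these counts do not show that the genotypes were alike. Nor does a lack of overlap between 2 brains and 2 others show a difference, since it is common without one. The share of all genes whose genotypes did not overlap is not given here.

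In Krt8-high cells the enzymes leaned to lower values in homozygous brains without passing the test. The log2 difference, homozygous minus heterozygous, was negative for 18 of 19 enzymes, with a median of -0.14. Over all 8011 fitted genes it was negative for 4591, with a median of -0.03. The enzymes rose and fell together from cell to cell, so they are not 19 separate observations, and the count is no test. Without heterozygous brain 2 it was negative for 18 of 19, with a median of -0.14, and without each of the other brains for 17, with medians of -0.16 to -0.11. Pmvk was at 125 and 126 CPM in the homozygous and at 171 and 152 CPM in the heterozygous brains, which did not overlap (limma, log2 difference -0.34 ± 0.12 SE, adjusted p = 0.787). Idi1 averaged 231 ± 8.57 CPM in homozygous and 285 ± 41.3 CPM in heterozygous brains (SD, n = 2 each), also without overlap (limma, -0.29 ± 0.13, adjusted p = 0.787). Npc2 went the other way, with 637 and 608 CPM in homozygous and 525 and 435 CPM in heterozygous brains (limma, 0.37 ± 0.11, adjusted p = 0.787). Without heterozygous brain 2, Pmvk alone of the members passed (-0.42). Without heterozygous brain 1, the fit called 2024 genes and 12 members, in which heterozygous brain 2 stood alone; that brain had the highest level of Fdps, Idi1, Cyp51, Msmo1 and Sqle among the 4. The fatty acid genes had a median of -0.14 and 0 of the 10 fitted passed. Median raw UMIs per Krt8-high cell were 103075 and 96635 in the homozygous and 107612 and 116929 in the heterozygous brains. The part of depth in the lean of the enzymes was not tested.

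In monocyte/macrophage-like cells Abca1 was at 25.8 and 25.7 CPM in the homozygous and at 53.3 and 41.8 CPM in the heterozygous brains. The genotypes did not overlap, and the difference did not pass (limma, log2 difference -0.68 ± 0.14 SE, adjusted p = 0.228); without heterozygous brain 2 it was -0.82 and passed. Soat1 was at 132 and 139 CPM in the homozygous and at 115 and 103 CPM in the heterozygous brains of this class (limma, 0.29 ± 0.11, adjusted p = 0.590), and Fdps at 62.9 and 56.1 CPM in the homozygous and at 66.6 and 72.9 CPM in the heterozygous ones (limma, -0.20 ± 0.12, adjusted p = 0.790). In naive microglia-like cells Abca1 was at 149 and 155 CPM in the homozygous and at 190 and 188 CPM in the heterozygous brains, again without overlap and without passing (limma, -0.30 ± 0.09, adjusted p = 0.209). The 7 Krt8-high marker genes summed to 18.9 to 22.2 CPM in these cells of the homozygous and to 26.0 to 28.3 CPM in those of the heterozygous brains; their part in the difference was not tested. Abcg1 was at 54.3 and 58.9 CPM in homozygous and at 67.4 and 78.4 CPM in heterozygous naive brains, and Soat1 at 67.6 and 66.0 CPM in homozygous and at 56.6 and 55.9 CPM in heterozygous ones; both pairs were apart, and neither passed. With metastases, the genotypes overlapped in Abca1 of microglia-like cells. Mylip there averaged 169 ± 8.40 CPM in homozygous and 250 ± 46.1 CPM in heterozygous brains (limma, -0.53 ± 0.17, adjusted p = 0.459). In naive microglia-like cells Mylip was at 342 and 334 CPM in homozygous and at 325 and 326 CPM in heterozygous brains, and the difference of the genotype effects between the states was -0.58 ± 0.18 (limma, adjusted p = 0.486); without homozygous brain 1 with metastases it was -0.63 and passed. With metastases, Npc2 in microglia-like cells was at 1072 and 1012 CPM in homozygous and at 873 and 812 CPM in heterozygous brains, and Ebp at 80.7 and 94.7 CPM in homozygous and at 66.9 and 59.9 CPM in heterozygous ones. Neither passed (limma, adjusted p = 0.548 for Npc2 and 0.569 for Ebp), nor did their differences between the states (limma, adjusted p = 0.600 for Npc2 and 0.623 for Ebp).

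In vascular-like cells Mylip was at 26.8 and 27.1 CPM in the homozygous and at 43.8 and 61.1 CPM in the heterozygous brains (limma, log2 difference -0.74 ± 0.21 SE, adjusted p = 0.353). Msmo1 was at 50.3 and 48.5 CPM in the homozygous and at 33.9 and 25.3 CPM in the heterozygous brains of this class, and Abcg1 at 31.9 and 31.4 CPM in the homozygous and at 11.2 and 20.4 CPM in the heterozygous ones. Both pairs were apart, as was Lipa, and none of them passed. The 7 Krt8-high marker genes summed to 106 to 178 CPM in vascular-like cells of the homozygous and to 76.6 to 101 CPM in those of the heterozygous brains; their part in these differences was not tested. In NK-like cells Msmo1 was at 13.1 and 12.9 CPM in the homozygous and at 36.3 and 17.1 CPM in the heterozygous brains (limma, -0.62 ± 0.32, adjusted p = 0.927); without heterozygous brain 2 it was -1.01 and passed. Msmo1 is among the enzymes at or below the free-RNA share in NK-like cells, so this is not read as a difference in expression. Soat1 was at 15.9 and 7.604 CPM in NK-like cells of the homozygous and at 24.2 and 16.7 CPM in those of the heterozygous brains, and its difference was -0.50. It was 0.48 when cells with a Krt8, Krt18 or Wfdc2 UMI were left out, but heterozygous brain 1 then kept 9 NK-like cells, under the minimum of 20, and homozygous brain 2 kept 25. Hmgcs1 there was at 14.5 and 12.2 CPM in the homozygous and at 24.2 and 15.1 CPM in the heterozygous brains. In T-like cells 15 of the 20 members fitted had positive differences, and their median was 0.08. The smallest p was that of Ebp, with 88.2 and 95.0 CPM in the homozygous and 67.1 and 79.9 CPM in the heterozygous brains (limma, adjusted p = 0.972). Sc5d was at 17.6 and 14.1 CPM in T-like cells of the homozygous and at 27.2 and 20.9 CPM in those of the heterozygous brains, and Mylip at 24.999 and 20.6 CPM in the homozygous and at 10.2 and 20.6 CPM in the heterozygous ones. Among the other sterol genes and the fatty acid genes, 0 passed in these comparisons.

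**Figure D4:**
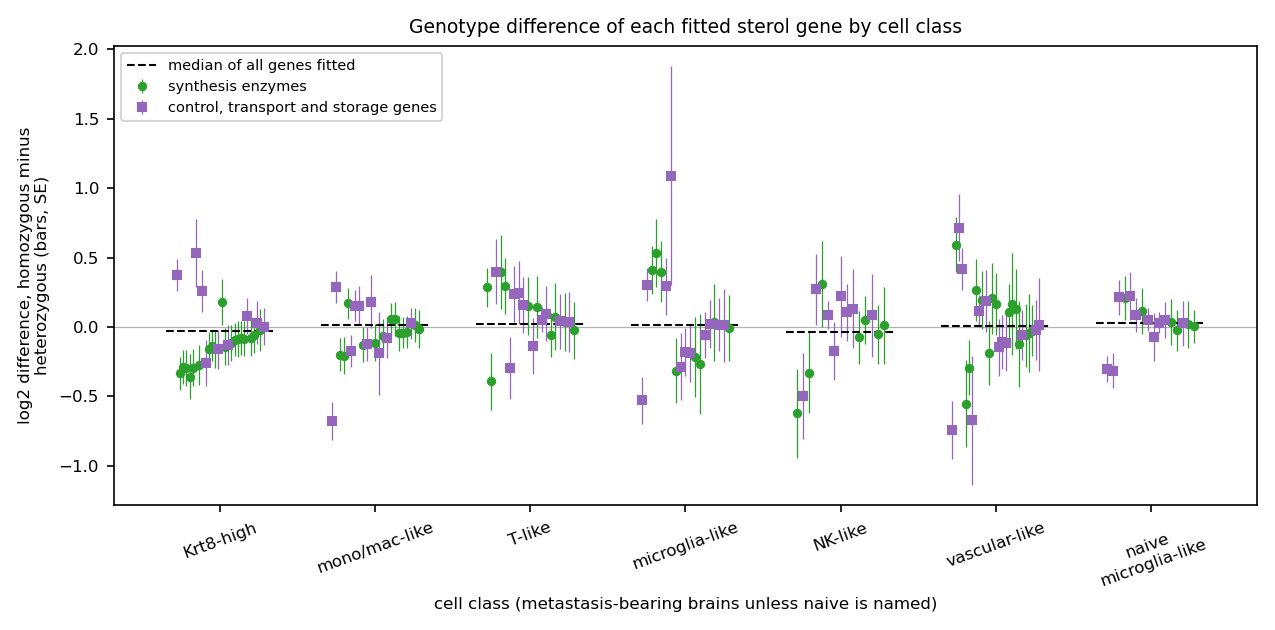
Log2 difference (homozygous minus heterozygous, with SE) of each fitted member in 7 comparisons, synthesis enzymes as green circles and the other members as purple squares, with a dashed line at the median of all fitted genes. In Krt8-high cells 18 of 19 green points lie below 0, as did 4591 of all 8011 fitted genes. No point passed the adjusted threshold.

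Metastasis-bearing and naive brains were set side by side without a test, since the depth correction was made separately in the 2 tables. In microglia-like cells 16 members were above 10 CPM in both states. Npc2 was the only one of them that lay higher in all metastasis-bearing brains: it was at 1072 and 1012 CPM in the homozygous and at 873 and 812 CPM in the heterozygous metastasis-bearing brains, against 687 to 713 CPM in naive brains. Of all 7065 genes 8.99% lay higher in this way. The filter of 10 CPM in both states left out Ch25h, which was at 4.86 to 104 CPM in metastasis-bearing and at 0 to 0.577 CPM in naive brains. Its 104 CPM was that of homozygous brain 1 alone, and naive microglia-like cells held 3 corrected UMIs of it. Lower in all metastasis-bearing brains were 4 members, against 18.1% of all genes. Mylip was at 163 to 282 CPM in metastasis-bearing and 325 to 342 CPM in naive brains, and Abca1 at 104 to 141 CPM in metastasis-bearing and 149 to 190 CPM in naive brains. Lipa was at 58.1 to 65.5 CPM in metastasis-bearing and at 76.7 to 107 CPM in naive brains, and Soat1 at 35.2 to 55.4 CPM in metastasis-bearing and 55.9 to 67.6 CPM in naive brains. With all deposited cells Lipa overlapped, and Fdps joined Npc2. The median log2 ratio of metastasis-bearing over naive was 0.00 over the 16 members and -0.11 over all genes. None of the enzymes above the level filter separated the states in the cells used here.

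Krt8-high cells of naive brains also had high levels of synthesis enzymes. The minimum of 20 cells left 3 naive brains, with 60, 44 and 21 such cells, and left out naive homozygous brain 1, with 11. Fdps was at 417 to 512 CPM in Krt8-high cells of metastasis-bearing brains and at 579 to 643 CPM in those of the 3 naive brains, which did not overlap. Idi1 was at 225 to 314 CPM in the metastasis-bearing and at 261 to 337 CPM in the naive ones, which overlapped. Of the 25 members above 10 CPM in both, 6 lay lower in all metastasis-bearing brains (Fdps, Pmvk, Mvk, Mvd, Fdft1 and Npc2), against 10.1% of all genes. Pmvk was at 125 to 171 CPM in metastasis-bearing and at 178 to 197 CPM in naive brains, and Npc2 at 435 to 637 CPM in metastasis-bearing and 655 to 917 CPM in naive brains. Higher in all metastasis-bearing brains were 3 members (Soat1, Hsd17b7 and Stard4), against 23.1%. These separations rest on which cells and brains are kept. With the naive brain of 11 cells, which had Fdps at 453 and Pmvk at 108 CPM, only Soat1 lay higher (13.5% of all genes did) and only Mvk lower (6.67%) of 26 members. With all deposited cells, which leaves 48 to 160 cells in each of the 4 naive brains, 28 members were above 10 CPM in both; Soat1, Ebp, Abcg1 and Npc1 lay higher in all metastasis-bearing brains and Npc2 lower. Soat1 alone of the members lay higher in each of these 3 ways, which share cells and are not separate checks. The naive Krt8-high cells used here held 22 corrected UMIs of Soat1. In naive brains the unnamed cluster with S100a8 and Chil3 had pooled levels of 1602 CPM for Npc2, 147 CPM for Soat1 and 109 CPM for Abcg1, and the unnamed cluster with Mgl2 and Pf4 had 889, 72.3 and 34.2 CPM.

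Within the monocyte/macrophage-like cluster, the authors' surface antibody gates split 594 Ly6CLow from 702 Ly6CHigh cells of 1786; Ly6C marks recently arrived monocytes. The gates were compared within brains by limma with the brain as a block, a comparison added after the data were seen. Of 22 members fitted, 2 were higher in Ly6CLow cells and 2 lower, against 10.9% and 9.51% of 6792 genes (20.4% in either direction). With median-ratio scaling the split of all called genes was 470 higher and 820 lower, in place of 741 and 646. Ly6c2 RNA was at 245 to 670 CPM in Ly6CLow and 1487 to 1947 CPM in Ly6CHigh cells.

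Pmvk was at 77.5 and 69.4 CPM in Ly6CLow cells of the homozygous and at 67.9 and 71.1 CPM in those of the heterozygous brains, against 42.1, 34.4, 37.7 and 36.2 CPM in Ly6CHigh cells of the same brains. The gates did not overlap (limma, log2 difference 0.78 ± 0.10 SE, adjusted p = 2.7e-04). Fdps was at 61.1 and 37.5 CPM in Ly6CLow cells of the homozygous and at 81.0 and 101 CPM in those of the heterozygous brains, against 59.2, 35.8, 24.8 and 35.0 CPM in Ly6CHigh cells. The difference passed (limma, 0.70 ± 0.22, adjusted p = 0.0441) and was far wider in the heterozygous brains; whether the genotypes differ in it was not tested. Without heterozygous brain 1 or 2 it was 0.46 or 0.49 and did not pass. Idi1 was higher in Ly6CLow cells in 4 of 4 brains and did not pass (limma, 0.39 ± 0.13, adjusted p = 0.0592).

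Npc2 was lower in Ly6CLow cells in all 4 brains, with 1673 ± 245 CPM, against 2199 ± 69.0 CPM in Ly6CHigh cells (limma, log2 difference -0.40 ± 0.07 SE, adjusted p = 0.00175). Soat1 averaged 111 ± 21.0 CPM in Ly6CLow and 146 ± 14.2 CPM in Ly6CHigh cells, lower in all 4 brains (limma, -0.39 ± 0.09, adjusted p = 0.0103); without heterozygous brain 2 it did not pass. The 8 dendritic cell markers summed to 120 to 418 CPM in Ly6CLow and 51.1 to 152 CPM in Ly6CHigh cells, among them Cd209a at 55.8 to 257 CPM in Ly6CLow and 1.79 to 23.3 CPM in Ly6CHigh cells, and Xcr1, Clec9a and Itgae at 0 in at least 1 Ly6CHigh sample. Fscn1 ran the other way in 3 of 4 brains (15.2, 5.58 and 13.1 CPM in Ly6CLow, against 30.9, 6.68 and 55.5 CPM in Ly6CHigh cells), and Ccr7 was level in homozygous brain 2 (27.1 CPM in Ly6CLow and 27.2 CPM in Ly6CHigh cells). Their part in the differences was not tested. Krt8 was at 6.15 to 14.3 CPM in Ly6CLow and 7.93 to 9.07 CPM in Ly6CHigh cells. Of the other sterol genes, 2 were higher and 2 lower of 19 fitted, and of the fatty acid genes 1 was higher of 4.

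**Figure D5:**
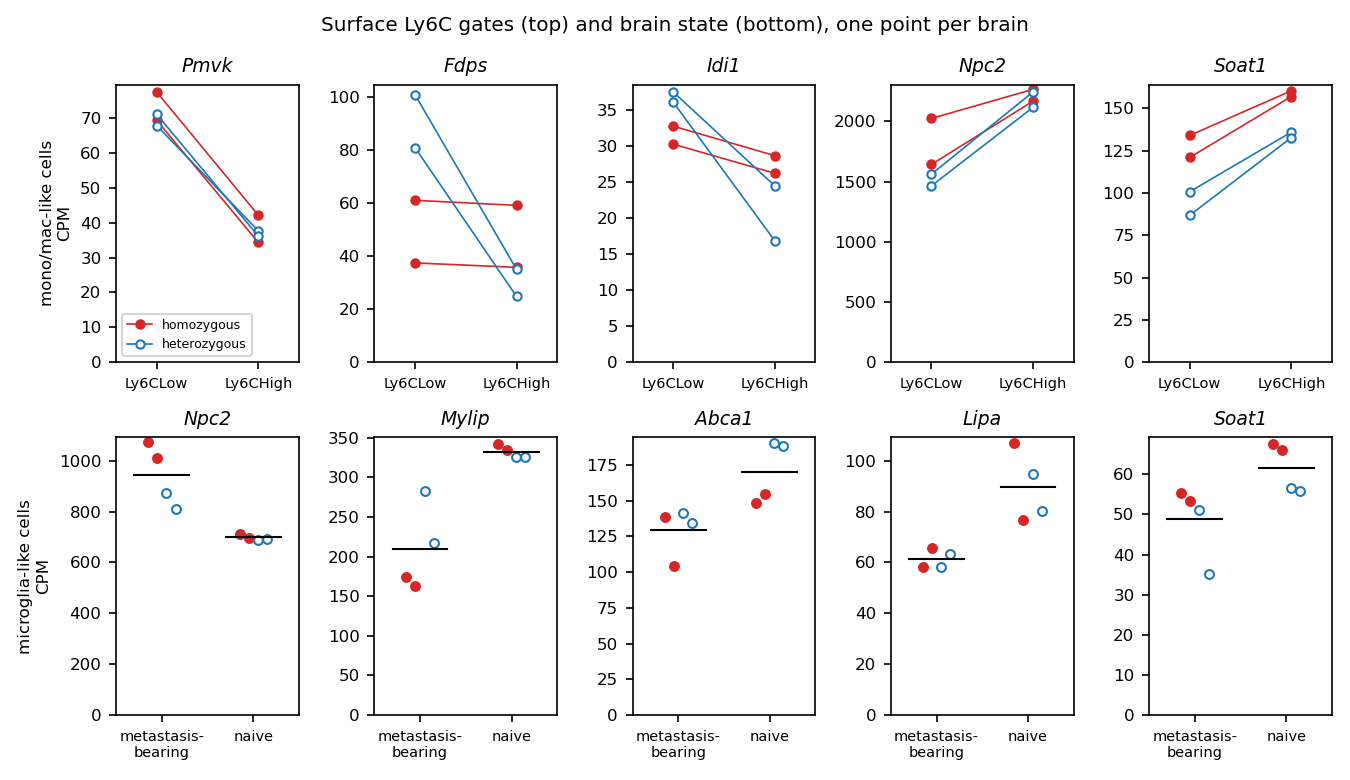
Top: CPM of 5 members in Ly6CLow and Ly6CHigh cells of the monocyte/macrophage-like cluster, with a line per brain. Bottom: CPM of 5 members in microglia-like cells of metastasis-bearing and naive brains, with 1 point per brain and a line at the mean (red filled, homozygous; blue open, heterozygous). Pmvk is higher and Npc2 and Soat1 are lower in Ly6CLow cells in all 4 brains, and Npc2 is higher and the other 4 genes lower in all metastasis-bearing brains.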

How the data were processed

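RNA of pooled, hashtagged brain cells was deposited as 2 tables in natural log units: the exponential of a value minus 1 was a whole corrected UMI count (relative tolerance 1e-06) for 100% of nonzero values, and the authors had corrected depth in each table on its own. The deposited metadata gave raw UMI counts, clusters, hashtags, genotypes and surface gates per cell. Upstream tools were Cell Ranger 3.1 and Seurat 3.1.1 with the build mm10, per the submitters' processing notes. All cells carried the authors' singlet label, and doublets were not called again.

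Corrected UMIs were summed per brain and class where at least 20 cells were present and scaled to CPM. Sums ran from 411941 to 20261826 corrected UMIs in the classes fitted. Genes averaging over 10 CPM entered limma 3.58.1 (R 4.3.3, lmFit and eBayes, variance trend) on log2(CPM + 10), each genotype comparison in its own table. The comparison of genotype effects between the states joined both. Adding or leaving the brain as a block concerned the gates only. Python 3.11.15 and scipy 1.17.1 did the other steps. Simulated data with 200 shifted genes tested the genotype fits in Krt8-high cells and in microglia-like cells of either state, and the gate fit. The other fits were not simulated. The shifts in the genotype simulations were larger than the differences reported here for the members. Clusters were named by marker lists.

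The 31 genes, lists and tests were chosen with earlier results of these data known. Values per brain are given for the 2 members of each role with the highest level and the 2 with the widest ratio between classes (plain, and with 10 CPM added to both), the 3 members with the smallest p in each genotype fit, and members that passed. Other values were picked after they were seen, as examples or exceptions. Alternatives changed pseudocount, filter, scaling, trend, cells kept and brains.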

Additional observations from a re-analysis of the deposited data

Results flagged for a closer look

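Within a group of 4 brains, a brain was singled out when its gap to the nearest of the others, divided by the range, exceeded Dixon's critical value. Chance alone singles out about 1 in 20 such groups; here it was 10 of 156, and each group mixed both genotypes. In Krt8-high cells heterozygous brain 2 was high for Mvk (69.2 CPM, others 61.3 to 62.4), Nsdhl (66.7 CPM, others 58.5 to 59.3) and Srebf2 (91.1 CPM, others 70.5 to 73.8). In vascular-like cells the same brain was high for Srebf2 (39.9 CPM, others 34.8 to 35.6), and homozygous brain 1 was high for Stard4 (44.5 CPM, others 29.9 to 31.8). In T-like cells heterozygous brain 1 was low for Acat1 (34.8 CPM, others 58.6 to 60.3) and Soat1 (21.2 CPM, others 31.8 to 33.1), and homozygous brain 2 was low for Npc1 (6.51 CPM, others 13.6 to 14.4). In NK-like cells heterozygous brain 1 was low for Sc5d (7.25 CPM, others 16.0 to 17.3). In microglia-like cells homozygous brain 1 was high for Ch25h, which makes an oxysterol (104 CPM, others 4.86 to 12.9).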

How the results depend on the processing

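No member passed in any genotype comparison under the alternatives that kept every brain. Leaving out 1 brain leaves a genotype with a lone brain, assumed to vary like the other genotype. The members called then ranged from 0 to 12 in Krt8-high cells (12 without heterozygous brain 1, 1 without heterozygous brain 2), 0 to 1 in monocyte/macrophage-like, in microglia-like and in NK-like cells, and 0 to 2 for the difference between the states. Over all genes, calls in Krt8-high cells were 2 in the reported fit and 12 to 2024 with a brain left out, and in naive microglia-like cells 44, with 2 to 75 when every brain was kept. In NK-like cells, the Soat1 difference was 0.48 without cells holding a Krt8, Krt18 or Wfdc2 UMI, which left 9 cells in heterozygous brain 1, under the minimum of 20. Between the gates, 4 members were called in the reported fit, 2 with no replicate block (Pmvk and Npc2), and 2 to 5 with a brain left out; Sqle was called without homozygous brain 1 and Mylip without heterozygous brain 1, neither of them in the reported fit. Fdps also missed the threshold with no filter, with median-ratio scaling (0.63) and with no variance trend. Of the Krt8-high members apart between the states there were 9, but 5 with all deposited cells and 2 with the naive brain of 11 cells. The causes were not tested. No paired analysis was possible because the labels tie no homozygous brain to a heterozygous one. Testing each cluster alone gave nothing further, since each class is a single cluster. With 2 brains a genotype, and few UMIs of most enzymes outside Krt8-high cells, small differences could not be detected.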
